A study of Mus musculus with 167 samples.

Results

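The genes described here are 10 components of autophagy and of the lysosome: Ulk1, Becn1, Atg5, Atg7, Map1lc3b, Gabarapl1, Sqstm1, Wdfy3, Lamp1 and Tfeb. They were listed by name, for their part in clearing expanded huntingtin. The list uses no measured value as a criterion, but it was drawn up with earlier results of these data known. They are 10 of the 39179 genes in the deposited tables, and all 10 passed the filter on low counts in every one of the 33 comparisons made.

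Autophagy encloses cytoplasm, organelles and protein aggregates in a double membrane, the autophagosome, which fuses with the lysosome so that its content is digested. Ulk1 encodes the kinase that starts the process, and Becn1 encodes Beclin 1, a subunit of the lipid kinase complex that marks the site where the membrane grows. Atg5 and Atg7 encode parts of the conjugation machinery that attaches proteins of the ATG8 family, among them those encoded by Map1lc3b and Gabarapl1, to the growing membrane. Sqstm1 encodes p62, a receptor that links ubiquitinated cargo to ATG8 proteins, and Wdfy3 encodes Alfy, a large scaffold protein that helps to deliver aggregated protein. Lamp1 encodes a glycoprotein of the lysosomal membrane, and Tfeb encodes a transcription factor that activates lysosomal and autophagy genes. In the liver autophagy supplies amino acids and lipids during fasting and turns over mitochondria, and it is one of the routes by which huntingtin is degraded.

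PolyA RNA was sequenced from the livers of C57BL/6 mice in 21 groups, with 1 library per animal. The mice were wild type or heterozygous for a knock-in allele of Htt, the huntingtin gene, with a CAG repeat named Q20, Q80, Q92, Q111, Q140 or Q175, and each of these 7 genotypes was sampled at 2, 6 and 10 months of age. A group held 8 mice, as a rule 4 females and 4 males, except Q80 at 10 months with 7 mice, and Q80 at 2 months was labelled as 3 females and 5 males. The repeat length is that in the name of the line and was not given per animal, every knock-in mouse also kept 1 wild-type allele, and the wild-type mice, described as littermates, were labelled as housed with Q20 mice. Q20, a repeat in the normal range, served as the control for the longer alleles.

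Library totals ran from 32025244 to 57151736 counts, which left even Tfeb, the member with the fewest reads, at 119 counts or more in every library. The targeted gene, Htt, fell with repeat length at all 3 ages, with slopes of −0.27 ± 0.04, −0.39 ± 0.04 and −0.42 ± 0.05 on the log2 scale per 100 CAG repeats (SE). The 8 hepatocyte markers summed to between 71215 and 151953 CPM (counts scaled to the TMM-normalized library size) in every library. At 6 months the library names of all knock-in libraries were of another kind than those of the wild type, so that genotype and library kind cannot be told apart in that 1 contrast. Muscle or blood RNA stood out in 3 libraries of Q175 at 10 months, the bile duct marker Krt19 exceeded 10 CPM in 7 libraries, and 1 library labelled male (Q80 at 2 months, M5) had neither Y-linked transcripts nor Xist. In whole tissue, fewer cells of a type and less RNA per cell cannot be told apart. Each library is 1 animal, and p-values measure the spread between these animals.

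Lamp1, Atg5 and Atg7 are the members whose promoter, in RefSeq's table for build GRCm38.p6, held CACGTG, the core of the element that TFEB binds; the bases before the transcription start are shown with each match in capitals. The Lamp1 stretch is chr8:13158911-13159160, the Atg5 stretch chr10:44268089-44268338 and the Atg7 stretch chr6:114670846-114671095, all on the plus strand.
Lamp1: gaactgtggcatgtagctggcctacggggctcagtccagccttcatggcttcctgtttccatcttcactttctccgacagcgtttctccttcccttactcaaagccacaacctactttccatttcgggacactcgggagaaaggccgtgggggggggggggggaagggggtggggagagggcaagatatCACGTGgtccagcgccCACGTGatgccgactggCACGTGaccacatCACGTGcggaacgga
Atg5: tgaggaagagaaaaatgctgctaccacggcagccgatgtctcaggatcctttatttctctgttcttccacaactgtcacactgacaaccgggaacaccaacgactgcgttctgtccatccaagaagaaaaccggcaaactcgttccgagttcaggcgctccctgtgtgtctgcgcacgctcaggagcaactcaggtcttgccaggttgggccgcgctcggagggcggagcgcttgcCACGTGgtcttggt
Atg7: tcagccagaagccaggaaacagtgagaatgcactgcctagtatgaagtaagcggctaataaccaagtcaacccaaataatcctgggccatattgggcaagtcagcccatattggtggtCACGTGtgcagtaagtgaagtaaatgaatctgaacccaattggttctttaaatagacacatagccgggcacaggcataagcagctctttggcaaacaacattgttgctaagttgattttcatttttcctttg
The Lamp1 promoter held 4 copies, which began 61, 45, 28 and 15 bases before the start, Atg5 held 1 copy that began 14 bases before it, and Atg7 1 copy that began 132 bases before it. CACGTG reads the same on both strands. It was present in 7.15% of the 32851 promoters of 300 bases in the table (250 before to 50 after the start), and 8 promoters, 0.0244%, held 4 or more copies. The longer CLEAR motif (coordinated lysosomal expression and regulation), a palindrome that contains it, was in 0.326% of the promoters and in none of the members'. Promoters were listed for 8 of the 10 members, with 3 for Tfeb. On either strand, TGACNNNGC, the core of the antioxidant response element, was in 12.4% of all promoters and in that of Map1lc3b, and TTCNNNGAA, the core of the STAT5 element, was in 8.3% and in that of Gabarapl1. These are matches of letters, and binding was not measured.

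All members are protein-coding genes. In GENCODE M21 (GRCm38) Ulk1 lies at chr5:110784488-110810097 and Wdfy3 at chr5:101832956-102069921, both on the minus strand of the chromosome that carries Htt, 75.87 and 66.92 Mb from it. The others are Becn1 (chr11:101285952-101302286, minus), Atg5 (chr10:44268358-44364291, plus), Atg7 (chr6:114643097-114860614, plus), Map1lc3b (chr8:121590361-121598760, plus), Gabarapl1 (chr6:129533160-129542346, plus), Sqstm1 (chr11:50199366-50210827, minus), Lamp1 (chr8:13159161-13175338, plus) and Tfeb (chr17:47737030-47792419, plus). The Atg7 promoter shown lies inside this gene model, downstream of its first base. Exons of a gene on the opposite strand overlap 43.9% of the Becn1 exons (Cntd1), 28.3% of the Gabarapl1 exons (1700101I11Rik), 17.3% of the Sqstm1 exons (Mrnip) and 9.3% of the Lamp1 exons (Grtp1). Whether the counting used strand is not given, so reads of those stretches cannot be assigned to one gene of the pair.

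Per length, in FPKM, the deposited level scaled for gene length and library size, Lamp1 was the most abundant member, with a median of 238 FPKM over all libraries and a range of 209 to 269. Gabarapl1 had a median of 203 FPKM (117 to 293) and Sqstm1 of 143 (90.8 to 212). Map1lc3b followed at 49.96 FPKM (41.1 to 64.4). Becn1 lay at 25.7 FPKM (20.96 to 29.8), Ulk1 at 18.1 (10.7 to 29.8), Atg5 at 18.05 (13.6 to 25.01) and Atg7 at 11.7 (7.46 to 17.7). The 2 lowest were Wdfy3 at 6.496 FPKM (3.52 to 9.29) and Tfeb at 3.21 (1.81 to 5.72). Each gene overlapped in range with its neighbours in this order, except Map1lc3b, whose libraries all lay below those of Sqstm1 and above those of Becn1.

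Within each gene the groups lay close together. The ratio of the highest to the lowest group mean over the 21 groups, on the CPM scale, was 1.14 for Becn1, 1.16 for Lamp1, 1.19 for Map1lc3b, 1.31 for Gabarapl1, 1.32 for Atg5, 1.34 for Atg7 and Wdfy3, 1.39 for Sqstm1, 1.43 for Ulk1 and 1.53 for Tfeb. The scatter of levels by library shows the 2 sexes parting within most groups for Sqstm1, Atg7 and Lamp1, while the genotypes share 1 band.

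**Figure D1:**
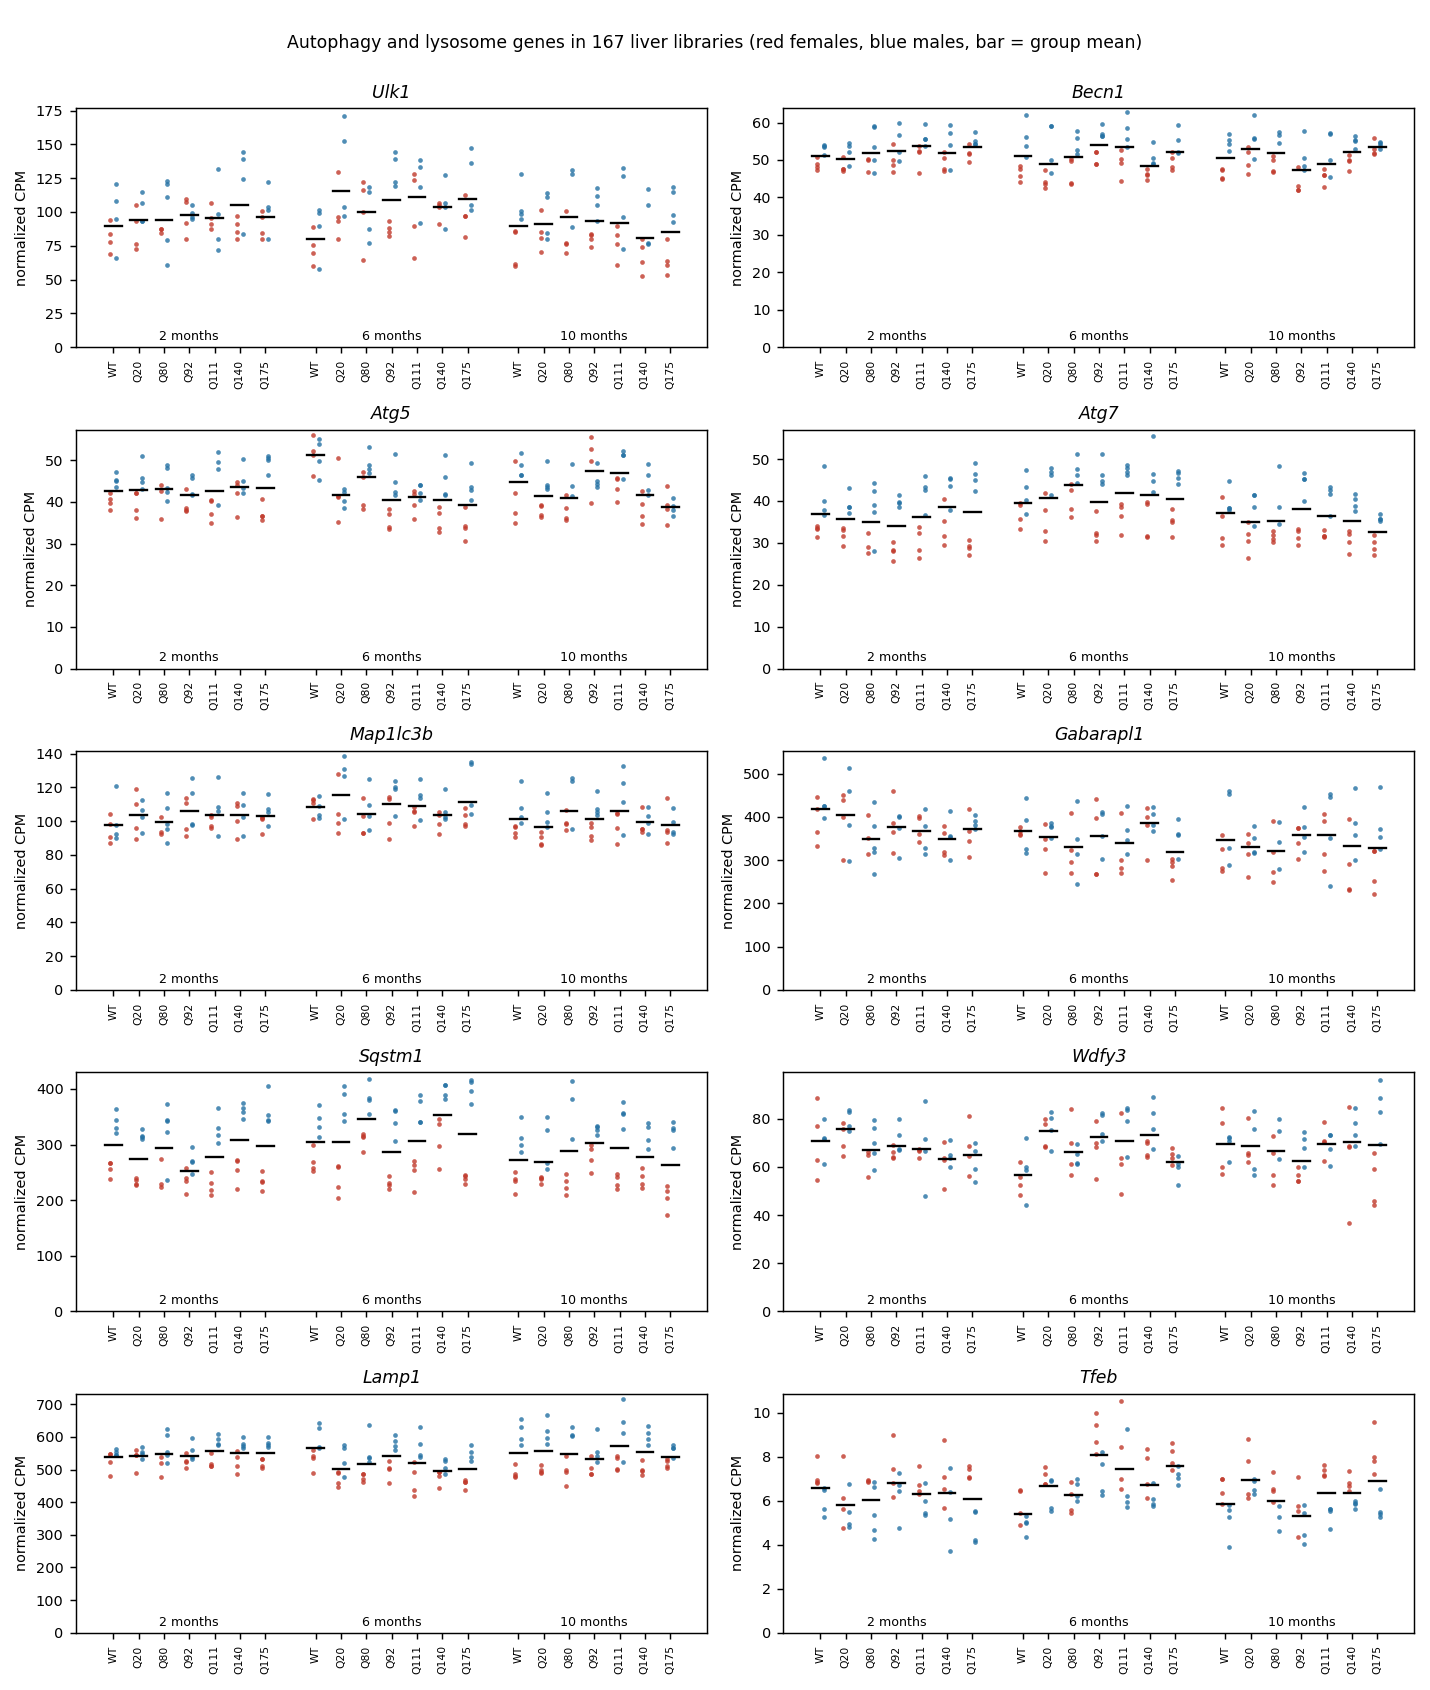
Level of each of the 10 members (CPM, 1 panel per gene) in every library, by genotype and age, with females in red, males in blue and a bar at the mean of the group. Sqstm1 and Atg7 were lower in the females than in the males on average in all 21 groups, and Tfeb was higher in the females in 20 of 21.

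The first question was whether these genes follow the length of the CAG repeat. Over the 6 knock-in lines, none of the 10 members changed with repeat length at 2, 6 or 10 months (edgeR's quasi-likelihood test, Benjamini-Hochberg adjusted over all genes tested). Of all genes tested, 0.266% changed with repeat length at 2 months, 5.67% at 6 months and 0.25% at 10 months. At an unadjusted p under 0.05 the members counted 2, 2 and 0, and DESeq2 called 0 at each age. The median slope of the members was 0.02, −0.03 and −0.01 at the 3 ages, and that of all genes −0.00, 0.00 and −0.01. The 95% intervals of all 10 slopes lay between −0.24 and 0.20 at 2 months, −0.23 and 0.21 at 6 months and −0.28 and 0.15 at 10 months, in log2 units per 100 repeats.

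Neither the initiation gene nor the nucleation gene had a slope past the threshold. Ulk1, which encodes the kinase that starts autophagy, had slopes of 0.06, −0.04 and −0.14 per 100 repeats at the 3 ages, the last with an SE of 0.07 and an adjusted p of 0.521 and the member slope farthest from 0 at 10 months. Becn1 had slopes of 0.06, 0.02 and 0.01, with an adjusted p of 0.326 at 2 months. Of the conjugation genes, Atg5 had its largest slope at 6 months, −0.09 ± 0.04 (SE, adjusted p = 0.217), and Atg7 at 2 months, 0.07 ± 0.04 (adjusted p = 0.447). The slopes at 10 and 2 months did not differ past the threshold for either gene, and those at 6 months were not compared with another age.

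The ATG8 genes and Lamp1 had no slope past the threshold either. Map1lc3b had slopes of 0.00, −0.05 and −0.00, Gabarapl1 of −0.08, −0.04 and −0.01, and Lamp1 of 0.02, −0.03 and −0.02. The 95% interval of the Lamp1 slope at 10 months, −0.08 to 0.04, was among the narrower ones. Tfeb, the transcription factor, had slopes of 0.03, 0.09 and 0.00.

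Of the receptor genes, Wdfy3 had the lowest adjusted p of all members at 2 and 6 months. Sqstm1 had a slope of 0.10 ± 0.04 at 2 months (adjusted p = 0.296), 0.06 at 6 months and −0.04 at 10 months. Wdfy3 had slopes of −0.15 ± 0.05 at 2 months, where the unadjusted p was 0.00331 and the adjusted p 0.125, of −0.13 ± 0.05 at 6 months (adjusted p = 0.158) and of 0.01 at 10 months. The plot of slopes shows Wdfy3 as the member farthest below 0 at 2 and 6 months, with Htt far below all of them.

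**Figure D2:**
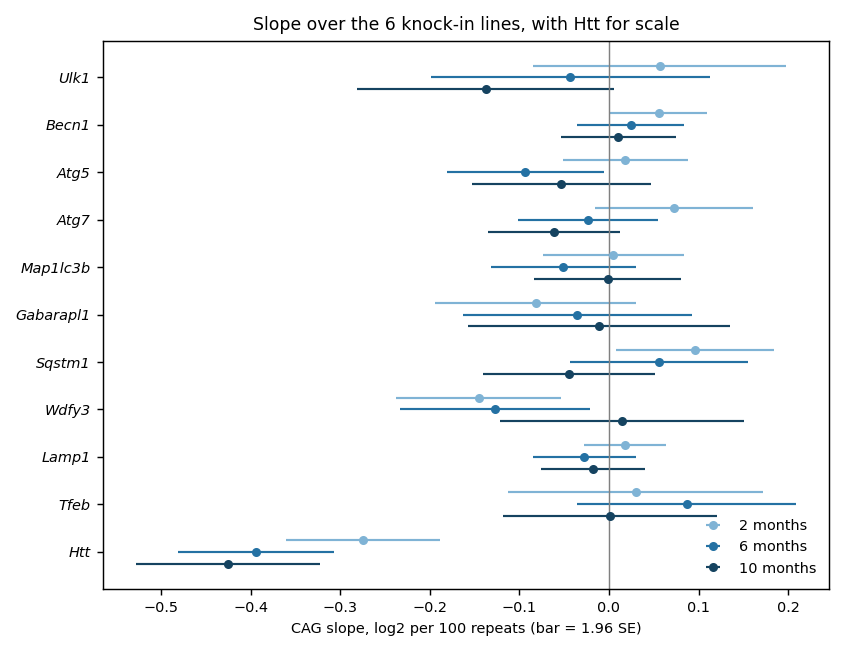
Slope of log2 expression per 100 CAG repeats in the 6 knock-in lines, for the 10 members and for Htt, at 2, 6 and 10 months; points are estimates and lines are 95% intervals. Member slopes ran from −0.15 to 0.10, while those of Htt were −0.27, −0.39 and −0.42.

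The slope at 10 months depended on the Q20 group. Fitted over the 5 lines from Q80 to Q175 alone, Atg7 and Sqstm1 fell with repeat length, with slopes of −0.19 and −0.22 per 100 repeats (adjusted p = 0.0308 and 0.0452), and Tfeb rose with a slope of 0.29 (adjusted p = 0.0337). In that fit 645 genes were called against 39 with Q20 included. Slopes did not differ between females and males for any member, with 0 of 10 called at each age (0, 1 and 1 at an unadjusted p under 0.05) and 0%, 0.213% and 0.173% of all genes called at 2, 6 and 10 months; DESeq2 also called 0. Nor was any member called for a difference in slope between 10 and 2 months, where 0.724% of all genes were and 2 members had an unadjusted p under 0.05.

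Each long allele was then compared with Q20 at the same age. All 5 comparisons of an age share the 8 Q20 libraries, so their values are set side by side and are not independent of each other. At 2 months 0 members were called in any line, beside 0.258% of all genes in Q175, 0% in Q140, 0% in Q111, 0% in Q92 and 0.0991% in Q80. At 6 months 1 member was called in Q175, where 10.2% of all genes were, and 0 in the other lines, where 4.91% of all genes were called in Q140, 0.678% in Q111, 16.6% in Q92 and 8.24% in Q80. At 10 months 2 members were called in Q92, beside 3.72% of all genes, and 0 in the rest, beside 0.931% in Q175, 0% in Q140, 0.962% in Q111 and 0.00637% in Q80. At an unadjusted p under 0.05 the members counted 2, 1 and 0 in Q175 at the 3 ages, 3, 2 and 0 in Q140, 1, 1 and 3 in Q111, 1, 2 and 4 in Q92, and 2, 3 and 2 in Q80. Where edgeR called 0, DESeq2 called 1 member each in Q140, Q92 and Q80 at 6 months and 0 elsewhere.

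**Figure D3:**
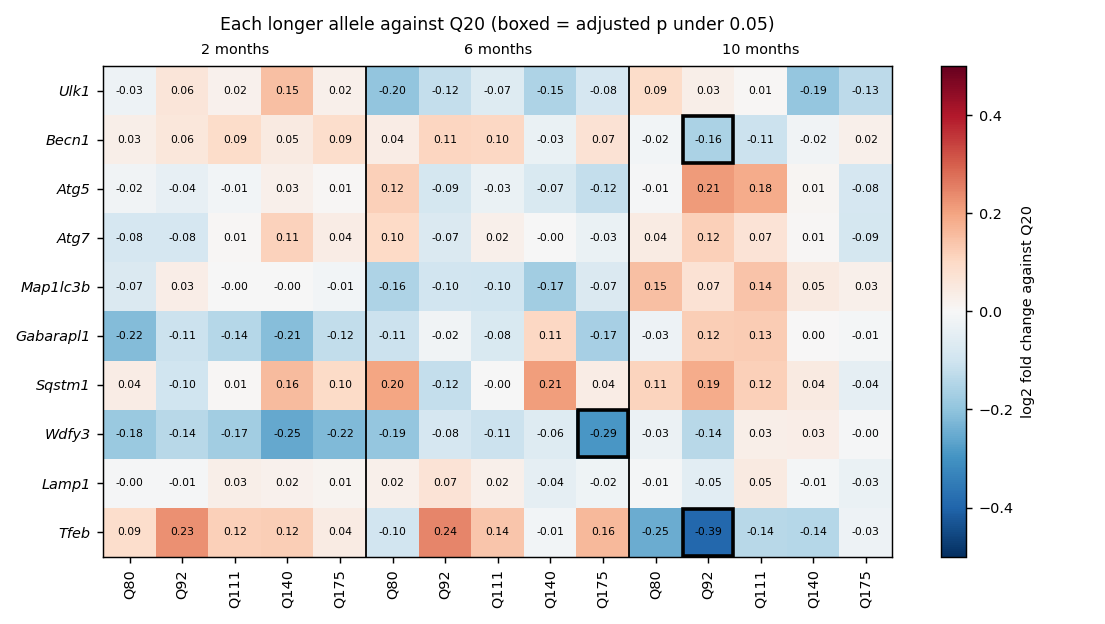
Log2 fold change of each member in the 5 lines with a long repeat against Q20 at 2, 6 and 10 months, as colours from blue (lower) to red (higher), with a box around each change past the threshold. The 3 boxes are Wdfy3 in Q175 at 6 months and Becn1 and Tfeb in Q92 at 10 months.

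Wdfy3 was lower in Q175 than in Q20 at 6 months. The 8 Q20 livers had 66.5 CPM at the lowest, 76.6 at the median and 82.7 at the highest, and the 8 Q175 livers 52.7, 62.5 and 68.0. Of the Q175 livers 7 lay below every Q20 liver, and the ranges overlapped by the 1 that did not. Wdfy3 fell by 0.29 ± 0.09 on the log2 scale (SE, 95% interval −0.47 to −0.11, adjusted p = 0.0315 by edgeR), a change of −18.3%. In the other lines at 6 months the differences were −0.06 in Q140, −0.11 in Q111, −0.08 in Q92 and −0.19 in Q80, with none past the threshold.

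At 2 months the Wdfy3 estimate was below Q20 in all 5 lines, at −0.18 in Q80, −0.14 in Q92, −0.17 in Q111, −0.25 in Q140 and −0.22 in Q175, none of them past the threshold. The Q20 livers of that age ran from 64.7 CPM to 83.5 with a median of 76.4, and the Q175 livers from 53.7 to 81.1 with a median of 65.7. At 10 months the Q175 livers spread more widely than the Q20 livers, from 44.2 to 96.3 CPM against 56.7 to 83.3, and the difference was −0.00 with an SE of 0.12. The 2 lowest of these Q175 livers were females and the 3 highest were males.

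The Wdfy3 call at 6 months held in 14 of 29 alternative settings, with values from −0.37 to −0.19 and adjusted p-values from 0.00792 to 0.386. It was lost in females alone (−0.20) and in males alone (−0.37, adjusted p = 0.0652), and without single libraries (Q175 M1, M3 or M4, or Q20 F1, F3, M1 or M2). Macrophage markers moved in the same contrast: 14 of 15 were lower in Q175, and their summed level ran from 149 to 643 CPM in Q175 and from 446 to 1375 in Q20. The 3 Q20 females with the highest sums, F1, F3 and F4, had 1184, 1185 and 1375 CPM. Without these 3 the Wdfy3 difference was −0.24 (adjusted p = 0.293) and 2 genes were called in place of 1595. Of the neutrophil markers 5 of 6 were lower and of the sinusoidal endothelial markers 4 of 9, and their part in the Wdfy3 value was not tested.

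In Q92 livers of 10 months the transcription factor gene Tfeb and the nucleation gene Becn1 were lower than in Q20. Tfeb ran from 6.12 CPM to 8.82 with a median of 6.69 in Q20, and from 4.02 to 7.09 with a median of 5.48 in Q92. It fell by 0.39 ± 0.09 on the log2 scale (adjusted p = 0.00939), a change of −23.7%. Becn1 ran from 46.3 CPM to 62.0 with a median of 52.8 in Q20, and from 42.0 to 57.8 with a median of 47.7 in Q92. It fell by 0.16 ± 0.04 (adjusted p = 0.0311), a change of −10.3%. For both genes the Q92 livers lay lower but overlapped the Q20 range.

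At 6 months Tfeb lay on the other side in the same line, with 0.24 ± 0.09 in Q92 (adjusted p = 0.0541 by edgeR, 0.0361 by DESeq2), and Becn1 was at 0.11 ± 0.04 (adjusted p = 0.0889). The conjugation gene Atg5 in Q92 at 10 months was at 0.21 ± 0.07 (adjusted p = 0.067 by edgeR, 0.0439 by DESeq2), and Sqstm1 at 0.19 ± 0.07 (adjusted p = 0.128). The Tfeb call at 10 months held in 10 of 14 alternatives and the Becn1 call in 8 of 14. Both were lost in females alone, in males alone, and with only the 2 groups in the fit. Without the libraries with Krt19 above 10 CPM, among them Q92 F3 and F4, Tfeb was at −0.33 (adjusted p = 0.0948) and Becn1 at −0.14 (adjusted p = 0.171), and 12 genes were called in place of 584. Beside these calls, 2 of 13 circadian clock genes were higher and 3 lower, 3 of 10 fasting genes were higher, and 1 of 5 bile duct markers was higher; their part was not tested.

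Sqstm1 stayed just short of the threshold in 2 lines at 6 months. The median was 302 CPM in Q20 livers (203 to 406), 364 in Q140 livers (255 to 408) and 337 in Q80 livers (286 to 417), so that all 3 ranges overlapped. The differences were 0.21 ± 0.07 in Q140 (adjusted p = 0.0529) and 0.20 ± 0.07 in Q80 (adjusted p = 0.0566), and DESeq2 called both (adjusted p = 0.0343 and 0.0405). In females alone they were 0.36 (adjusted p = 0.0131) and 0.37 (adjusted p = 0.0137). In males alone 0 members were called in either line, beside 2 genes in all in Q140 and 0 in Q80. Leaving out the 3 Q20 females with the highest macrophage sums also gave 0 members in either line. That fit called 132 genes in Q140 in place of 768, and 125 in Q80 in place of 1288. In Q92 at the same age Sqstm1 lay on the other side, with a median of 275 CPM (220 to 363), and was not called on the counts. The 3 FPKM fits called it lower there, at −0.20 on log2(FPKM + 0.1) (adjusted p = 0.021 by limma). The median of all genes was at −0.09 in that fit. The ATG8 gene Map1lc3b was at −0.17 ± 0.07 in Q140 (adjusted p = 0.113) and −0.16 ± 0.07 in Q80 (adjusted p = 0.131). The 3 FPKM fits called Map1lc3b lower in Q80, at −0.21 on log2(FPKM + 0.1) (adjusted p = 0.0264 by limma).

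The rest of the pathway was counted over 131 listed genes, the members included, of which 130 were tested. With repeat length 1 gene rose and 0 fell at 2 months, 1 rose and 6 fell at 6 months, and 0 changed at 10 months. These are 0.769%, 5.38% and 0% of the list, beside 0.266%, 5.67% and 0.25% of all genes, so that the share at 6 months was near that of all genes. The 6 month calls named below are from the fit with the Q20 libraries, without which 13 genes were called in place of 879. The riser at 2 months was Rraga, which encodes a GTPase that recruits mTORC1 to the lysosome (0.13, adjusted p = 0.0383). At 6 months Vps16, of the tethering complexes that join autophagosome and lysosome, rose by 0.10. Those that fell included the receptor gene Nbr1 (−0.15), the tethering factor gene Epg5 (−0.15), and, among the genes for lysosomal hydrolases and their cofactors, Ppt1 and Man2b1 (−0.14 each).

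In Q175 against Q20 at 6 months 1 pathway gene rose, Vps16 again, and 9 fell, 7.69% of the list beside 10.2% of all genes. The falls included Atp6v1b2, a subunit of the proton pump, at −0.29, Ppt1 at −0.25 and Man2b1 at −0.24. In the same contrast 14 of 15 macrophage markers were lower, as given above, and their part was not tested. In Q92 7 pathway genes rose and 9 fell at 6 months, and 2 rose and 4 fell at 10 months, 12.3% and 4.62% of the list beside 16.6% and 3.72% of all genes. The 6 of 10 months were Atg101 (0.48), of the ULK complex, Ctsl (0.31), which encodes the protease cathepsin L, Atg4d (−0.29), Tollip (−0.17), Becn1 and Tfeb. At 6 months 0 rose and 5 fell in Q140 (3.85% of the list beside 4.91% of all genes), 2 rose and 5 fell in Q80 (5.38% beside 8.24%), and 0 changed in Q111 (beside 0.678%).

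Q20 was also compared with the wild type, a contrast of the knock-in allele with a short repeat. No member was called at 2 months, beside 0% of all genes, or at 10 months, beside 0.00637%; the members with an unadjusted p under 0.05 counted 0 and 1, and DESeq2 called 0 at both ages. At 6 months 5 of 10 were called, beside 31.3% of all genes, in the 1 contrast where genotype and library kind cannot be told apart. Ulk1 ran from 58.0 to 102 CPM in the wild type (median 82.1) and from 79.7 to 171 in Q20 (median 100), and was higher by 0.53 ± 0.14 (adjusted p = 0.00226). Wdfy3 ran from 44.1 to 72.0 CPM in the wild type (median 57.3) and was higher in Q20 by 0.43 ± 0.09 (adjusted p = 0.000269). Atg5 ran from 45.4 to 56.1 CPM in the wild type (median 51.7) and from 35.2 to 50.5 in Q20 (median 41.3), and the difference was −0.28 ± 0.07 (adjusted p = 0.00231). Tfeb was higher by 0.33 ± 0.09 (adjusted p = 0.00358) and Lamp1 was at −0.15 ± 0.05 (adjusted p = 0.00932). The groups overlapped for all of these genes. In this contrast 10 of 15 macrophage markers and 7 of 9 sinusoidal endothelial markers were higher in Q20, and 29 of 130 pathway genes were higher and 22 lower, 39.2% of the list. The Wdfy3 call held in 13 of 13 alternatives and that of Ulk1 in 12 of 13. Atg5 (10 of 13) and Lamp1 (8 of 13) lost theirs in the 3 FPKM fits, with Lamp1 at −0.05 there, Lamp1 also in each sex alone, and Tfeb (10 of 13) lost its call in centred FPKM (0.12) and in each sex alone. On log2(FPKM + 0.1), Becn1 (0.13), Atg7 (0.26) and Map1lc3b (0.18) were called instead.

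Age was compared within the wild type and, between 2 and 10 months, within the knock-in lines. In the wild type 0 members were called between any 2 ages, beside 1.31% of all genes from 2 to 6 months, 1.56% from 2 to 10 and 0.0542% from 6 to 10; at an unadjusted p under 0.05 the members counted 4, 2 and 3. From 2 to 6 months Atg5 was at 0.25 ± 0.07 (adjusted p = 0.0591), Tfeb at −0.31 ± 0.08 (adjusted p = 0.0696) and Wdfy3 at −0.34 ± 0.10 (adjusted p = 0.0932), and DESeq2 called Atg5 and Tfeb (adjusted p = 0.0151 and 0.0225).

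In the knock-in lines 1 member was called between 2 and 10 months, beside 21.6% of all genes. This was the ATG8 gene Gabarapl1, which fell by 0.13 ± 0.05 on the log2 scale (adjusted p = 0.0285), a change of −8.77%; it lost the call in the fits to FPKM (adjusted p from 0.115). Gabarapl1 medians in CPM went from 420 to 329 in Q20, from 340 to 319 in Q80, from 380 to 363 in Q92, from 355 to 330 in Q140 and from 376 to 323 in Q175, and in Q111 they were 369.8 and 370.1. In the wild type the same difference was −0.27 ± 0.10 (adjusted p = 0.178). Of the 130 pathway genes 9 rose and 11 fell in the knock-in lines, 15.4% of the list beside 21.6% of all genes. The falls took in 4 of 7 genes of the ATG9 and WIPI proteins, which act early at the growing membrane (Wipi2, Atg9a, Wdr45 and Wipi1, from −0.07 to −0.14), and Ulk2 (−0.19), which encodes a second ULK kinase. The tetraspanin gene Cd63 rose by 0.49, and Ids and Galns, for lysosomal sulfatases, by 0.23 and 0.25. Neutrophil markers (7 of 7), bile duct markers (5 of 5) and muscle markers (4 of 4 tested) were higher at 10 months, and their part was not tested. The summed muscle level was 799 CPM in Q175 F3 and 23.7 in Q175 F4 of 10 months, while the Q175 median was 0.67 CPM at 10 months and 0.47 at 2 months. In fits of a single age 1 muscle marker passed the low-count filter at 2 and at 6 months and 4 at 10 months. The muscle count therefore does not show a rise in the livers at large.

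Of the factors compared, sex gave the most calls among the members. Of the 10 members 7 at 2 months, 9 at 6 months and 10 at 10 months differed between females and males, beside 57.2%, 60.4% and 56.6% of all genes, so that a difference between the sexes was common in the liver as a whole. Tfeb was the 1 member higher in females at each age, and the others called, 6, 8 and 9 of them, were lower. The females numbered 27, 28 and 28 and the males 29, 28 and 27. A line against Q20 had at most 8 animals on each side, so these counts of calls do not rank the factors by size of effect.

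The receptor gene Sqstm1 had the largest difference of the 10 at 2 and 6 months. At 2 months females ran from 208 to 274 CPM with a median of 237, and males from 236 to 405 with a median of 330. At 6 months the medians were 256 and 375 CPM (203 to 346 in females, 306 to 417 in males), and at 10 months 236 and 327 CPM (173 to 299 and 257 to 415). The ranges overlapped at each age, and the mean of the females was the lower one in 21 of 21 groups of genotype and age. The log2 difference, females minus males, was −0.44, −0.50 and −0.47 with an SE of 0.04 each (adjusted p = 2.3e-15, 2.01e-17 and 2.82e-15).

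Of the conjugation genes, Atg7 ran from 25.7 to 40.5 CPM in females of 2 months (median 30.6) and from 28.0 to 49.0 in males (median 41.4). The medians were 36.4 and 46.3 CPM at 6 months and 31.5 and 38.9 CPM at 10 months. Female means of Atg7 were below male means in 21 of 21 groups, and the log2 differences were −0.42, −0.34 and −0.34. Atg5 was lower in females, at −0.21, −0.18 and −0.15, with female means below male means in 17 of 21 groups.

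Ulk1 was at −0.19 ± 0.07, −0.26 ± 0.07 and −0.47 ± 0.06 in females (adjusted p = 0.0128, 0.00211 and 1.59e-08). At 10 months females ran from 52.9 to 101 CPM (median 76.8) and males from 72.9 to 132 (median 105). Becn1 was at −0.12, −0.20 and −0.17, with an SE of 0.02 each, and lower in females in 21 of 21 groups. These 2 genes, for initiation and nucleation, thus lay on the same side as Sqstm1 and Atg7.

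Lamp1 was at −0.12, −0.20 and −0.24 in females. At 2 months Lamp1 ran from 478 to 559 CPM in females (median 524) and from 520 to 625 in males (median 568), and at 10 months from 449 to 543 (median 499) and from 522 to 717 (median 597). Of the ATG8 genes, Map1lc3b was at −0.07 (adjusted p = 0.118), −0.13 and −0.16, and Gabarapl1 at −0.03 (adjusted p = 0.588), −0.13 (adjusted p = 0.0396) and −0.22. The Gabarapl1 call at 6 months held in 3 of 10 alternatives. It was lost without the low-count filter (adjusted p = 0.0615), in the FPKM fits, centred or not, without F1, F3 and F4 of Q20 (adjusted p = 0.0546) and without the libraries with Krt19 above 10 CPM (adjusted p = 0.056). The change of the sex difference from 2 to 10 months passed the threshold for neither ATG8 gene. Wdfy3 passed the threshold at 1 age, 10 months, with −0.06, −0.09 and −0.19 (adjusted p = 0.276, 0.12 and 0.0102).

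Tfeb went the other way. Females ran from 4.75 to 8.98 CPM at 2 months (median 6.89) and males from 3.73 to 7.51 (median 5.48). At 6 months the medians were 7.12 and 6.26 CPM, and at 10 months 6.996 and 5.64. The log2 differences of Tfeb were 0.29, 0.20 and 0.32 (adjusted p = 5.01e-05, 0.000423 and 1.3e-07), and its female mean was the higher one in 20 of 21 groups.

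The direction of these calls depended in part on the scale. On the TMM-normalized counts used above, 51.8%, 51.4% and 52.6% of all genes called were higher in females at the 3 ages, while on the deposited FPKM the shares were 73.9%, 76.9% and 81%. FPKM moved the median of all genes to 0.09, 0.12 and 0.15 above 0 in females, against 0.01, 0.01 and 0.02 in the counts. On FPKM 4, 5 and 5 members were called, and after each library was centred at its median gene 8, 8 and 10, with 48.6%, 50.9% and 50.8% of all calls higher in females. Sqstm1, Atg7 and Tfeb were called in the same direction at all 3 ages on each of these scales and in every other alternative run. So were Atg5 at 2 months, Becn1 at 6 months, Lamp1 at 6 and 10 months and Ulk1 at 10 months. Gabarapl1 at 6 months and Atg5 at 10 months changed sign on FPKM, to values of 0.0027 and 0.00105. The estimates of Map1lc3b and Gabarapl1 at 2 months and of Wdfy3 at 2 and 6 months, none of them past the threshold on the counts, also lay above 0 on FPKM.

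**Figure D4:**
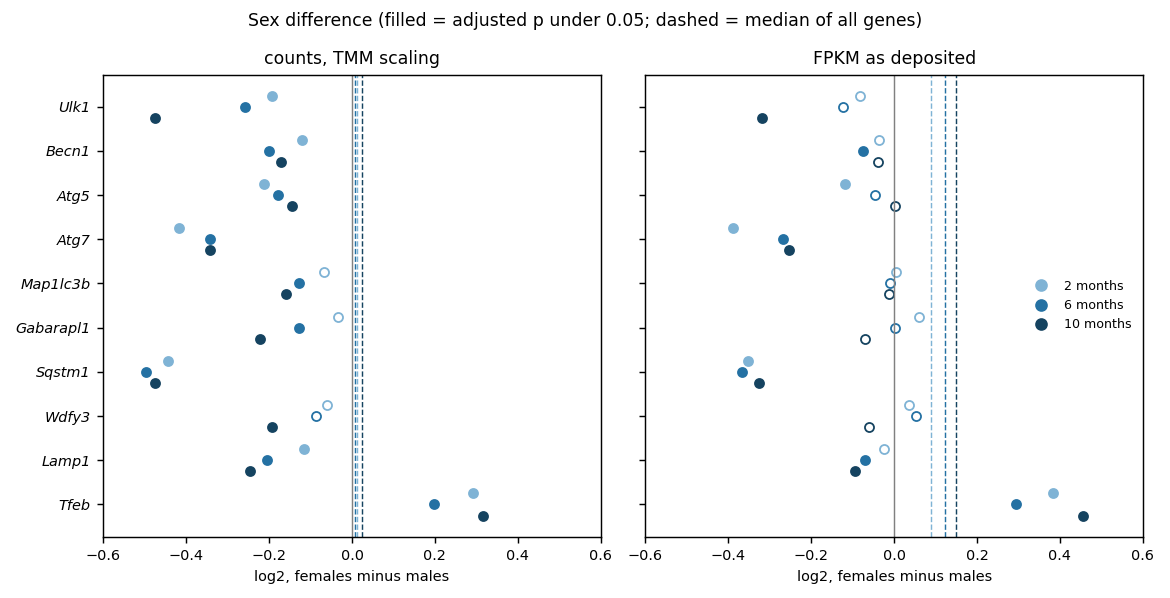
Log2 difference between females and males for each member at 2, 6 and 10 months, from TMM-normalized counts in the left panel and from FPKM in the right panel, with filled points past the threshold and a dashed line at the median of all genes. On both scales Sqstm1 and Atg7 lie farthest below 0 at 2 and 6 months and Tfeb lies above it at each age.

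Macrophage markers were higher in females, 15, 15 and 14 of 15 at the 3 ages, and of 13 circadian clock genes 9, 9 and 8 were higher and 4 lower each time. Their part in the differences of the members was not tested.

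Among the 130 pathway genes 42 were higher and 45 lower in females at 2 months, 37 and 56 at 6 months, and 29 and 61 at 10 months, in all 66.9%, 71.5% and 69.2% of the list beside 57.2%, 60.4% and 56.6% of all genes. On FPKM these counts were 63 and 23, 66 and 24, and 59 and 30, and after centring 40 and 48, 37 and 51, and 30 and 59. The majority thus changed side with the scale. In the lists of the ULK complex, of the ATG9 and WIPI proteins and of the ATG8 family, more genes were lower than higher on all 3 scales. Of the 5 genes of the ATG8 family 2, 4 and 4 were lower in females and 0 higher, and on FPKM 2 were lower and 1 higher at each age. Of the 5 genes of the ULK complex 4, 5 and 5 were lower in females and 0 higher, and on FPKM 3, 3 and 4 were lower and 0 higher. At 10 months these were Atg13 (−0.67), Ulk2 (−0.46), Atg101 (−0.44) and Rb1cc1 (−0.14) beside Ulk1. Of the 7 genes of the ATG9 and WIPI proteins 5, 6 and 6 were lower and 0 higher, and on FPKM 3, 3 and 4 were lower and 1 was higher, at 6 months, with Wipi1 at −0.71 and Wipi2 at −0.31 at 10 months.

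In the conjugation list Atg16l2, a relative of the scaffold gene Atg16l1, had the largest difference, −1.44 at 10 months, and the protease gene Atg4a was at −0.46, while Atg3, which encodes the enzyme that transfers ATG8 proteins to lipid, was at 0.25. Among ATG8 genes Map1lc3a was at −0.38 and Gabarapl2 at −0.34. Among receptors Tax1bp1 was at −0.29 and the mitophagy receptor gene Bnip3 at 0.61. Lamp2, the sister gene of Lamp1, was at −0.20. The lysosomal hydrolases had more genes higher than lower in females, 15 and 6, 16 and 7, and 13 and 7 of 30. At 10 months Arsa, for arylsulfatase A, was at −2.37 and Galns at −0.82, while Npc2, for a cholesterol carrier, was at 0.47. The plot of pathway lists shows these counts by list and age.

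**Figure D5:**
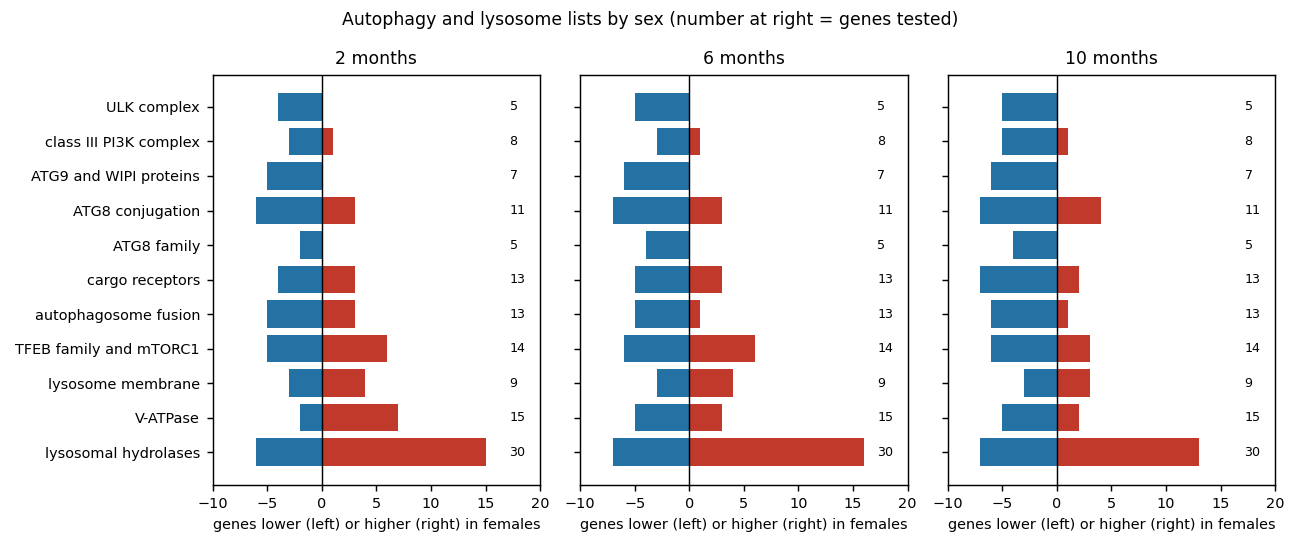
Number of genes lower (left of 0) and higher (right of 0) in females for each of the 11 pathway lists at 2, 6 and 10 months, from TMM-normalized counts. The ULK complex has 0 genes higher at each age, and the lysosomal hydrolases have more genes higher than lower.

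A further comparison, added after the differences between the sexes were seen, asked whether they changed from 2 to 10 months. Of the members 1 was called, beside 2.89% of all genes (456 of 15796), and 3 had an unadjusted p under 0.05. For Lamp1 the difference between females and males moved by −0.12 ± 0.03 on the log2 scale (adjusted p = 0.018), that is, the females lay farther below the males at 10 months, and the call held in 9 of 9 alternatives (−0.13 to −0.07). Ulk1 moved by −0.28 ± 0.09 without passing the threshold (adjusted p = 0.0804). Of the pathway genes 0 moved up and 10 down (7.69% of the list beside 2.89% of all genes), among them Atg13 and Mtor, which encodes the kinase that restrains Ulk1, at −0.27 each, Ulk2 at −0.25 and Hexa at −0.16.

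Lastly, the members were compared with each other across animals. The level of each gene in log2 CPM was taken as its deviation from the mean of its group and sex, over all libraries, and all 45 pairs were tested by permutation within age. With Benjamini-Hochberg adjustment over the 45 pairs 18 Pearson correlations were positive and 5 negative past the threshold, and the smallest p the permutations can give is 1e-05. The permutation did not allow for the group and sex means removed beforehand, so its p-values are too small and pairs near the threshold are uncertain. Spearman rho differed for some pairs. Ulk1 and Gabarapl1 passed the threshold by r but not by rho (permutation, adjusted p = 0.0299 for r and 0.0879 for rho). Becn1 and Atg7 passed it by rho but not by r (0.0679 for r and 0.0185 for rho). The share past the threshold among pairs of other genes was not computed. All genes of a library share its depth and its animal.

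The closest pairs were the following. Ulk1 and Map1lc3b had a Pearson r of 0.548 and a Spearman rho of 0.523 (permutation p = 1e-05 each, adjusted p = 5.62e-05 for r and 7.5e-05 for rho), with r at 0.674, 0.556 and 0.383 at 2, 6 and 10 months. Becn1 and Lamp1 had an r of 0.535 and a rho of 0.474 (the same p-values), with r at 0.45, 0.578 and 0.571 at the 3 ages. The 2 conjugation genes Atg5 and Atg7 had an r of 0.529 and a rho of 0.523 (the same p-values), with r at 0.555, 0.79 and 0.229. Without the 2 libraries farthest from the median the r of the 3 pairs became 0.533, 0.515 and 0.557.

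Atg5 ran against several members. With Tfeb its r was −0.344 and its rho −0.316 (permutation p = 1e-05 and 3e-05, adjusted p = 5.62e-05 and 0.000169), with r at −0.398, −0.282 and −0.369 at 2, 6 and 10 months. With Ulk1 the r was −0.294 and the rho −0.296 (permutation p = 0.00014 and 0.00015, adjusted p = 0.000519 and 0.000514). With Becn1 the r was −0.287 and the rho −0.306 (permutation p = 0.00021 and 7e-05, adjusted p = 0.000675 and 0.000315), with r at −0.395, −0.353 and −0.114 by age. Without the 2 farthest libraries the r of the 3 pairs was −0.314, −0.263 and −0.271.

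Over 10898 genes whose log2 CPM averaged 1 or more, the genes most like each member were found by the Pearson r of the same deviations over all libraries, as a description. Wdfy3 had the closest partners, Arhgef12 (r = 0.856), Nr2c2 (0.846) and Foxn3 (0.822), and Map1lc3b had Fbxo31 (0.826). Gabarapl1 had Mbtd1 and Tspan12 (0.771 each), Sqstm1 had Psmd11 (0.757), a proteasome subunit gene, Becn1 had Ahsa2 (0.736) and Ulk1 had Fbxo34 (0.698). Atg5 was most like Tstd3 (0.67), Lamp1 like Grina (0.666), Atg7 like Cers2 (0.628) and Tfeb like Abhd17a (0.623). Genes for subunits of the proton pump were among the 3 nearest for Becn1 (Atp6v0b, 0.709) and for Lamp1 (Atp6v0d1, 0.657).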

How the data were processed

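Liver RNA of 167 mice in 21 groups was measured by polyA RNA-seq. The authors deposited expected counts and FPKM per gene for each library. CASAVA 1.8.2 is named per the submitters' processing notes; for the aligner, the counting tool, its use of strand and the genome build, the sources used here name nothing. The deposited expected counts, of which 14.1% of values were not whole, were rounded. Gene symbols came from an ID table that matched 37607 IDs and left 1572 unmatched. Total counts ran from 32025244 to 57151736 per library (median 38663519).

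Groups, ages and sexes came from the labels. The sex labels were checked by the summed level of Y-linked genes: 55 of 56, 56 of 56 and 55 of 55 libraries matched at 2, 6 and 10 months, and the exception (Q80 at 2 months, M5) kept its label. Each comparison was fitted across all genes with edgeR 4.0.16 (R 4.3.3): genes with low counts were removed by filterByExpr, libraries were scaled by TMM, and the quasi-likelihood test was adjusted by Benjamini-Hochberg at 0.05. Sex was a term in the fits. The slope used the repeat length in the line's name, per 100 repeats, over 6 knock-in lines. SEs were taken from the fold change and the F statistic, and intervals cover 95%. CPM levels share 1 TMM scaling over all libraries.

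The members and lists were chosen with earlier results of these data known. The 10 members are named in every comparison; other pathway genes are named up to 4 per list and comparison, those past the threshold with the smallest p, and Htt is named as the targeted gene. Alternatives were DESeq2 1.42.0, RLE scaling, no filter, limma 3.58.1 on log2(FPKM + 0.1) or log2(FPKM + 1), a block for the replicate number, fits of 2 groups, each sex alone, and fits without single libraries, without the Q20 libraries, or without libraries with RNA of muscle, blood or bile duct. The centred FPKM fit and the comparison of sex differences between ages were added after seeing the data. The fits were tested on simulated data: in Q175 against Q20 at 10 months, 32% of genes changed 1.25-fold and 78% of those changed 2-fold were recovered (15689 genes).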

Additional observations from a re-analysis of the deposited data

Results flagged for a closer look

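In 5 of the 210 sets of 1 gene in 1 group, 1 library stood apart from the others; chance flags about 1 in 20 such sets (5%). Gabarapl1 was at 300.7 CPM in female F4 of Q140 at 6 months, with the nearest library at 367.8. Wdfy3 was at 36.7 CPM in female F4 of Q140 at 10 months, with the nearest at 68.2. Lamp1 was low in female F2 of the wild type at 2 months (479.2 CPM, nearest 524.0) and in female F4 of Q20 at 2 months (489.2, nearest 533.5), and high in male M3 of Q80 at 6 months (635.9, nearest 537.1). The difference of Lamp1 between females and males was not the same at 2 and 10 months by the test of that change, which gave −0.12 on the log2 scale.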

How the results depend on the processing

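The count of called members moved by over 1.5 times under some alternative in 11 of the 33 comparisons, as follows, and the cause was not tested. Without the Q20 libraries the slope at 10 months had 3 members called in place of 0, beside 645 genes in place of 39. For Q175 against Q20 at 6 months the 1 call became 0 without the low-count filter, in the fits to log2(FPKM + 0.1), with or without a filter, and to log2(FPKM + 1), in females alone, in males alone, and when F1, F3 and F4 of Q20 were left out; leaving out 1 replicate gave 0 to 1. For Q140 at 6 months 0 became 1 under DESeq2, under RLE scaling and in females alone. For Q92 at 6 months 0 became 1 under DESeq2, RLE scaling and 2 groups (Tfeb, higher). It also became 1 in females alone (Atg5, lower) and in FPKM with no filter (Sqstm1, lower). It became 2 under log2(FPKM + 0.1) (Sqstm1 and Map1lc3b, lower) and in centred FPKM (Tfeb and Becn1, higher). Under log2(FPKM + 1) it became 3 (Sqstm1, Map1lc3b and Atg7, lower). For Q92 at 10 months 2 became 1, Tfeb, without the filter and in centred FPKM. In females alone Becn1 and Tfeb were both lost, and the 1 call was Atg5, higher (0.39, adjusted p = 0.04998 by edgeR). The count was 0 with 2 groups, in males alone and without libraries with Krt19 above 10 CPM. For Q80 at 6 months 0 became 1 under DESeq2, centred FPKM and females alone, where the call was Sqstm1, higher. It also became 1 in the 3 FPKM fits, where the call was Map1lc3b, lower. For Q20 against the wild type at 6 months 5 became 2 in females alone and 3 in males alone. Between the sexes 7, 9 and 10 became 4, 5 and 5 in each of the 3 FPKM fits. In the wild type from 2 to 6 months 0 became 2 under DESeq2.

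Of the values past the threshold on the counts or on FPKM, 3 changed sign in the FPKM fits. Becn1 in Q20 against the wild type at 6 months went to 0.13 in each (from −0.04), and Gabarapl1 between the sexes at 6 months to 0.0027 in each. Atg5 between the sexes at 10 months went to 0.00105 for a pseudocount of 0.1 and 0.00128 for 1. Sign changes of values past the threshold on neither scale were not counted here.

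The labels do not say that a replicate number marks a shared litter or day. Same-numbered libraries were compared for Q175 with Q20 alone. At 2, 6 and 10 months 4, 6 and 5 of 8 such pairs correlated above 0.1. Among the 4 Q175 libraries of the same sex, 1, 6 and 4 of the 8 Q20 libraries correlated best with their own number, most often at 6 months. The numbers were not taken as pairs in the main fits, and what a number shares at 6 months was not tested. With the replicate block the called members were 1 in place of 0 for Q140, Q92 and Q80 at 6 months and 6 in place of 7 between the sexes at 2 months. The calls gained were Sqstm1 in Q140 (adjusted p = 0.0466) and Q80 (0.0491) and Tfeb in Q92 (0.0317), and the call lost was Ulk1 (−0.13, adjusted p = 0.209). The block changed no other count of members.

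Counts over all genes moved more. The slope called 40 genes at 2 months (0 to 173 over the alternatives), 879 at 6 months (13 to 1100) and 39 at 10 months (1 to 645). At the 3 ages Q175 called 39 (0 to 140), 1595 (2 to 1970) and 146 (0 to 301), Q140 0 (0 to 24), 768 (2 to 1441) and 0 (0 to 11), Q111 0 (0 to 0), 106 (0 to 749) and 151 (0 to 178), Q92 0 (0 to 3), 2602 (0 to 3051) and 584 (2 to 844), and Q80 15 (0 to 23), 1288 (0 to 1540) and 1 (0 to 49). Q20 against the wild type called 0 (0 to 1), 4897 (1782 to 5185) and 1 (0 to 4), and the wild type 193 (13 to 528), 230 (34 to 467) and 8 (0 to 317) between 6 and 2, 10 and 2, and 10 and 6 months. The slope by sex called 0 (0 to 0), 33 (0 to 179) and 27 (0 to 145), its change with age 117 (32 to 242), and the sex difference by age 456 (373 to 1128). Between the sexes 8651 (5923 to 8941), 9449 (8966 to 10362) and 8879 (8352 to 10461) genes were called.

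On simulated data 32% of 1.25-fold changes were recovered in Q175 against Q20 at 10 months (4 false of 136 calls). The share was 60% in the slope at 10 months (18 false of 177 calls) and 68% between the sexes at 6 months (10 false of 180 calls). A slope is a change per 100 repeats, so its share cannot be set against that of a difference between groups. False calls made up a larger part of the slope calls than the threshold on adjusted p allows on average, and slightly larger for the sexes. Changes below 1.25-fold, such as those of Wdfy3 in Q175 and Becn1 in Q92, were not simulated. Protein, autophagic flux and the cell type of origin were not measured.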
